A study of Rattus norvegicus and Bos taurus with 6 samples.

Results

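Genes that mark tissue-resident macrophages were followed through 6 single-nucleus RNA-seq libraries of rat and cow adipose tissue. The 10 genes were Mrc1, Cd163, F13a1, Lyve1, Csf1r, Ms4a4a, Clec10a, Timd4, Folr2 and Siglec1. They were found by matching gene symbols in any case, which gave 9 of the 10 among 25629 listed genes in the 10x Genomics rat library, 9 among 38697 genes in each Parse rat library and 8 among 36075 genes in the cow library. Lyve1 had no match in the rat files, and MS4A4A and FOLR2 had none in the cow file, which left 7 genes matched in both species. Levels are counts of unique molecular identifiers (UMIs, each marking 1 captured transcript) summed over nuclei and scaled to a total of 1000000 per library (CPM).

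Resident macrophages of adipose tissue lie along vessels and between adipocytes, where they take up debris, lipoproteins and iron-loaded haemoglobin complexes and help to shape the matrix and the lymphatics. The receptor CSF1R, bound by CSF1 and IL34, keeps macrophages and monocytes alive, and the transcription factor PU.1 opens many of their genes. Mrc1 (the mannose receptor), Cd163 (a haptoglobin-haemoglobin scavenger receptor), Clec10a (a galactose-type lectin), Siglec1 (a sialic acid receptor), Lyve1 (a hyaluronan receptor), Timd4 (a phosphatidylserine receptor) and Folr2 (a folate receptor) take up or bind ligands at the cell surface. F13a1 encodes the A subunit of coagulation factor XIII, a crosslinking enzyme, and Ms4a4a a membrane protein of the tetraspan MS4A family. Ptprc encodes CD45, the surface phosphatase of all leukocytes. Lyve1 and Mrc1 are also made by lymphatic endothelial cells, and F13a1 by megakaryocytes.

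The rat tissues came from male Dahl SS rats (SS/HsdMcwiCrl) and were mesenteric perivascular adipose tissue (mesPVAT), retroperitoneal fat (RP fat), thoracic aortic perivascular adipose tissue (taPVAT) and subscapular brown adipose tissue (BAT). The cow tissue was subcutaneous white adipose tissue (cow WAT) from the flank of a female lactating Holstein. All tissue was snap frozen, no group received a treatment, and age was not given in the sources used here. mesPVAT was profiled once on the 10x Genomics platform (batch 1, with its own isolation protocol and sorting of stained nuclei) and once on the Parse platform, where the other 4 tissues were run with it (batch 2). The white rat libraries of batch 2 are named by their deposited labels, here mesPVAT-Parse and RP-Parse, and which depot each holds rests on those labels alone. The depths that the study gives for these depots do not match the labels, so the pair may carry each other's label, and every value of mesPVAT-Parse and RP-Parse is subject to this. The library of batch 1 is called mesPVAT-10x. Because the platforms, isolation and batches differ together, their parts in a difference between the 2 libraries labelled mesPVAT cannot be told apart. Each condition had 1 library, so no difference between conditions could be tested. All intervals are 95% exact Poisson intervals for sums of UMIs and 95% exact binomial (Clopper-Pearson) intervals for shares, and they cover counting error only.

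The libraries held 2297 to 5887 nuclei and between 845316 UMIs (RP-Parse) and 16827260 UMIs (cow WAT). Median UMIs per nucleus were 161 in mesPVAT-10x, 346 in mesPVAT-Parse, 213 in RP-Parse, 3530 in cow WAT, 1706 in BAT and 1246 in taPVAT. Ucp1, which defines brown adipocytes, stood at 2072 CPM in BAT and 1782 CPM in taPVAT. In the white rat tissues, Ucp1 had 1 UMI in mesPVAT-10x, against 63.4 CPM in mesPVAT-Parse and 89.9 CPM in RP-Parse, both of the same batch as BAT and taPVAT. Whether RNA of those libraries adds to the member counts was not tested. No cell barcode was shared between libraries. A tissue with fewer macrophages and a tissue with less RNA per macrophage cannot be told apart from summed counts.

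The promoters of the members are described first, by the letters that they hold. Whether these letters bear on detection of the genes in the same nuclei was not tested. Of the 10 members, 8 had a promoter in the RefSeq table of build GRCr8, and Clec10a and Siglec1 had none. In windows of 300 bases, the core of the PU.1 site (GAGGAA, on either strand) was present in 3 of the 8, Mrc1, F13a1 and Csf1r, and in 27.6% of all 33469 promoters in the table. The AP-1 letters TGANTCA were in 0 of the 8 (7.33% of all promoters), the C/EBP letters TTNNGCAA in 1 of the 8 (10.6%) and the letters TGCTGA of Maf sites in 2 of the 8 (18.4%). The 250 bases before the start are given below for Mrc1, at chr17:82157475-82157724, and for F13a1, at chr17:28020947-28021196. Both lie on the forward strand of GRCr8, directly upstream of the annotated gene, and were chosen because they hold a PU.1 core next to the start, in capitals.

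Mrc1: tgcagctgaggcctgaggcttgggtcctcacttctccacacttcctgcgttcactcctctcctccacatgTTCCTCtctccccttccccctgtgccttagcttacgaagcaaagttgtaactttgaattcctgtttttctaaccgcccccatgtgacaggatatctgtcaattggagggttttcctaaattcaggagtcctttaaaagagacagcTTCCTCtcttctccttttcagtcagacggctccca
F13a1: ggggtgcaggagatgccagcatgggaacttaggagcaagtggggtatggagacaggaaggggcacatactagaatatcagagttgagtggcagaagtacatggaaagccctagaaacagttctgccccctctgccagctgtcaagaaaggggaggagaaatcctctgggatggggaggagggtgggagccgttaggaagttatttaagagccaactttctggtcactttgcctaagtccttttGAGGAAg

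The Mrc1 promoter held the core at 180 and 35 bases before the start, both on the reverse strand. The F13a1 promoter held it at 7 bases before the start, on the forward strand. A match is a description of letters and not of a bound site.

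The scavenger and lectin receptors were lowest in BAT among the Parse libraries of rat tissue. Mrc1 stood at 247 CPM (220 to 277) in mesPVAT-10x, 80.0 CPM (72.4 to 88.1) in taPVAT, 77.9 CPM (65.0 to 92.5) in mesPVAT-Parse, 74.9 CPM (70.9 to 79.2) in cow WAT, 53.2 CPM (38.8 to 71.2) in RP-Parse and 26.4 CPM (22.6 to 30.8) in BAT. The mesPVAT-10x library was highest and BAT lowest, each apart from its neighbour by more than the counting intervals. taPVAT, mesPVAT-Parse and cow WAT had overlapping intervals, and RP-Parse overlapped the last 2 of them.

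Cd163 stood at 259 CPM (251 to 267) in cow WAT, 97.8 CPM (81.1 to 117) in mesPVAT-10x, 45.0 CPM (31.8 to 61.7) in RP-Parse, 40.8 CPM (35.4 to 46.7) in taPVAT, 39.8 CPM (30.8 to 50.7) in mesPVAT-Parse and 16.6 CPM (13.6 to 20.1) in BAT. Cow WAT was highest, mesPVAT-10x next and BAT lowest, and the other 3 libraries were within each other's intervals. In cow WAT the largest count of CD163 in a single nucleus was 120 UMIs.

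Clec10a, a lectin of alternatively activated macrophages and dendritic cells, stood at 39.6 CPM (29.3 to 52.3) in mesPVAT-10x and between 2.53 CPM (1.45 to 4.11, BAT) and 8.43 CPM (6.10 to 11.4, taPVAT) in the other rat libraries. In cow WAT it was 3.57 CPM (2.72 to 4.59). Only mesPVAT-10x stood apart upwards. Siglec1 went the other way, with 21.3 CPM (12.6 to 33.7) in RP-Parse, 10.9 CPM (6.44 to 17.2) in mesPVAT-Parse, 7.65 CPM (5.44 to 10.5) in taPVAT, 5.65 CPM (4.57 to 6.90) in cow WAT, 2.06 CPM (1.10 to 3.52) in BAT and 1 UMI in mesPVAT-10x. The 2 libraries labelled mesPVAT were therefore in opposite order for these receptors.

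Timd4, which binds phosphatidylserine on dying cells, was highest in RP-Parse, at 29.6 CPM (19.1 to 43.7). It stood at 12.1 CPM (7.37 to 18.6) in mesPVAT-Parse, 8.89 CPM (4.44 to 15.9) in mesPVAT-10x, 7.84 CPM (5.60 to 10.7) in taPVAT, 3.15 CPM (2.36 to 4.12) in cow WAT and 2.69 CPM (1.57 to 4.31) in BAT. The RP-Parse value rested on 25 UMIs in 25 nuclei, and its interval did not overlap that of any other library. Folr2 rested on 2 to 37 UMIs in a rat library, with 7.25 CPM (5.11 to 10.0) in taPVAT against 1.27 CPM (0.547 to 2.49) in BAT. LYVE1 was matched in cow WAT alone, at 15.04 CPM (13.2 to 17.0), with a UMI in 129 of 2297 nuclei.

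F13a1 stood at 185 CPM (178 to 192) in cow WAT, 108 CPM (86.7 to 132) in RP-Parse, 71.8 CPM (59.5 to 86.0) in mesPVAT-Parse, 64.6 CPM (51.3 to 80.5) in mesPVAT-10x, 51.0 CPM (45.0 to 57.6) in taPVAT and 17.1 CPM (14.0 to 20.6) in BAT. Cow WAT and BAT stood at the ends of this order with intervals apart from the rest, and mesPVAT-10x overlapped both its neighbours. F13a1 made up 31.9% of all member UMIs in RP-Parse against 12.4% in mesPVAT-10x. Of the BAT UMIs of F13a1, 17.6% came from 1 nucleus. In cow WAT its level differed between the 2 sublibraries of the library, with 213 CPM and 160 CPM.

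Csf1r stood at 164 CPM (158 to 171) in cow WAT, 55.6 CPM (40.9 to 73.9) in RP-Parse, 53.9 CPM (47.7 to 60.7) in taPVAT, 39.2 CPM (30.3 to 50.0) in mesPVAT-Parse, 24.4 CPM (20.7 to 28.5) in BAT and 16.2 CPM (9.87 to 25.0) in mesPVAT-10x. Cow WAT stood apart upwards, and BAT and mesPVAT-10x overlapped at the lower end. Csf1r was low in mesPVAT-10x, where Mrc1 was high, and the share of Csf1r in all member UMIs ran from 3.10% there to 24.6% in BAT. Its ligand Csf1 ran from 27.1 CPM (23.2 to 31.4) in BAT to 91.2 CPM (86.7 to 95.9) in cow WAT. The other ligand, Il34, was between 25.0 CPM and 46.5 CPM in the Parse libraries and at 7.27 CPM (3.33 to 13.8) in mesPVAT-10x. Ms4a4a fell in order from 38.0 CPM (27.9 to 50.5) in mesPVAT-10x through 22.3, 16.6 and 11.8 CPM in mesPVAT-Parse, RP-Parse and taPVAT to 6.01 CPM (4.26 to 8.26) in BAT.

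**Figure D1:**
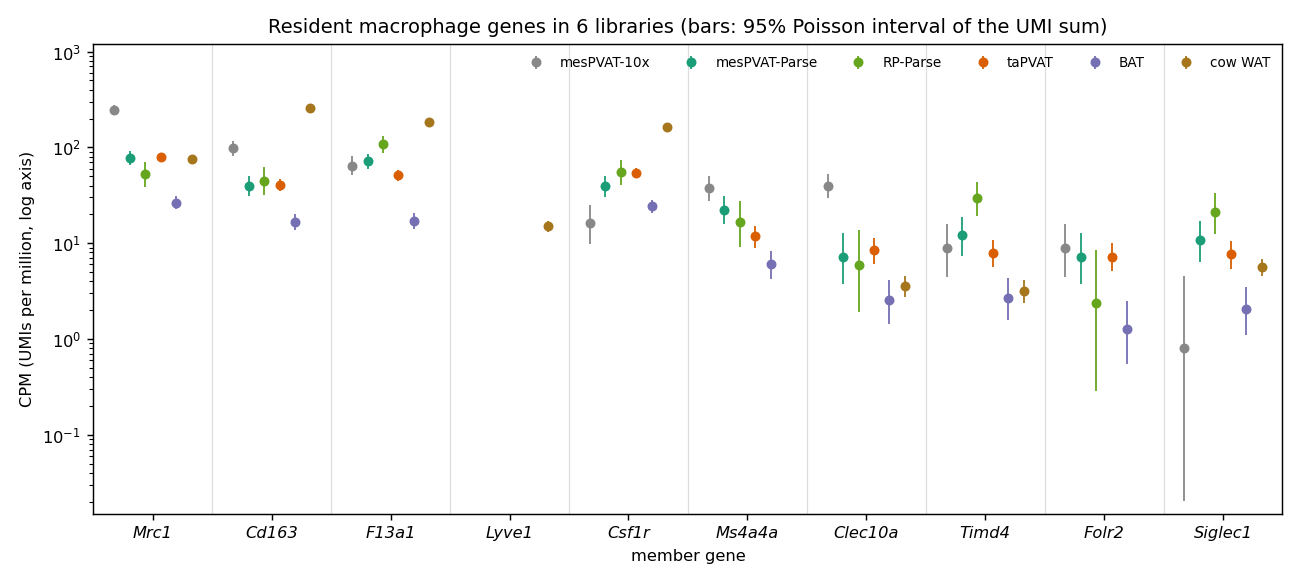
CPM on a log axis (UMIs summed over all nuclei of a library, scaled to a total of 1000000) of each member gene in the 6 libraries, with 95% exact Poisson intervals as bars. BAT is the lowest rat library for every member except Csf1r and Siglec1, where mesPVAT-10x is lower, and Lyve1 has a value in cow WAT alone because no rat file matched it.

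As a description, CPM were also divided by the span of each rat gene on GRCr8 in kb. UMIs mark transcripts, so they need not scale with the span of a gene. The mesPVAT-10x library was made with a kit that tags transcript ends, and the study's methods name Rnor_6.0 for it. Per kb of span, Csf1r (2.02) and Clec10a (2.01) led in taPVAT, before Cd163 (1.22) and Mrc1 (0.979), and F13a1, the longest of these genes at 176.764 kb, came out at 0.288. In mesPVAT-10x Clec10a led at 9.43 CPM per kb, against 3.03 for Mrc1 and 0.606 for Csf1r. The order of the members after this division differed between these 2 libraries, which differ in depot and in platform. It follows the spans as well as the counts and does not rank the genes by expression.

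Summed over the members, the level was 710.5 CPM (698 to 723) in cow WAT, 522 CPM (483 to 564) in mesPVAT-10x, 337 CPM (299 to 379) in RP-Parse, 289 CPM (263 to 316) in mesPVAT-Parse, 269 CPM (255 to 283) in taPVAT and 99.1 CPM (91.5 to 107) in BAT. Over the 7 genes matched in both species the sums were 695, 475, 318, 259, 249.6 and 91.8 CPM in the same order. BAT was the lowest library in both sums.

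The 2 thermogenic tissues, both of batch 2, differed in most members. A gene was called when its CPM differed at least 2-fold with at least 20 UMIs in the higher library, a rule of size and not a test. By this rule 8 of the 9 members were higher in taPVAT than in BAT, against 5.08% of the 15446 genes with enough UMIs, and 0 of 9 were higher in BAT (0.868% of genes). The ratio of taPVAT to BAT was 3.03 for Mrc1, 2.45 for Cd163, 2.98 for F13a1, 2.21 for Csf1r, 3.33 for Clec10a, 2.91 for Timd4, 5.73 for Folr2 and 3.72 for Siglec1. Ms4a4a, at 1.96, missed the fold. The median ratio of the members was 2.98 and that of all genes compared 1.06. Ptprc differed in the same direction, at 151 CPM (140 to 162) in taPVAT and 49.9 CPM (44.5 to 55.7) in BAT, a ratio of 3.03.

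Between mesPVAT-Parse and RP-Parse, 6 members had enough UMIs. None of these was higher in mesPVAT-Parse (7.85% of genes), and Timd4 alone was higher in RP-Parse, 2.45-fold (7.04% of genes). None of the 8 members compared between taPVAT and mesPVAT-Parse moved 2-fold either way, where 12.1% of genes were higher in taPVAT and 39.7% higher in mesPVAT-Parse. The members' median ratio of taPVAT to that library was 1.01, beside 0.768 over all genes. All 5 members compared were higher in RP-Parse than in BAT, from 2.01-fold for Mrc1 to 11.0-fold for Timd4, but 40.1% of all genes were called in that direction (22.1% in the other), so the count says little about the members.

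The libraries labelled mesPVAT on the 2 platforms differed in composition. Mrc1 (3.18-fold), Cd163 (2.45-fold) and Clec10a (5.47-fold) were higher in mesPVAT-10x than in mesPVAT-Parse, and Csf1r was 2.43-fold higher in the Parse library, which makes 3 and 1 of 7 members. RP-Parse stood on the same side of mesPVAT-10x for each of these 4 genes, so the directions do not depend on which Parse library holds mesPVAT. Of all genes, 23.4% were higher in mesPVAT-10x and 33.8% in the Parse library, so such differences were common. Ptprc was 2.12-fold higher in the Parse library, and F13a1 differed by 1.11-fold. Mrc1 took 47.4% of member UMIs on the 10x Genomics platform and 27.0% on Parse.

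The share of nuclei with any member was largest in cow WAT and smallest in mesPVAT-10x. At least 1 member was seen in 46.1% of nuclei in cow WAT, 17.4% in taPVAT, 12.0% in mesPVAT-Parse, 9.06% in RP-Parse, 8.45% in BAT and 6.27% in mesPVAT-10x. At least 2 members were seen in 24.4% (22.7 to 26.2) of nuclei in cow WAT, 6.43% (5.53 to 7.42) in taPVAT, 2.37% (1.83 to 3.02) in BAT, 1.98% (1.52 to 2.54) in mesPVAT-Parse, 1.49% (1.20 to 1.84) in mesPVAT-10x and 0.784% (0.492 to 1.18) in RP-Parse. Nuclei with at least 2 members held more UMIs than nuclei with none, with medians of 7996 and 2759 in cow WAT, 2789 and 1702 in BAT and 1458 and 1229 in taPVAT.

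The order changed once depth was made equal. With each nucleus thinned to 200 UMIs, at least 2 members were seen in 2.39% (1.81 to 3.10) of nuclei in cow WAT, 1.86% (1.32 to 2.53) in mesPVAT-10x, 1.22% (0.840 to 1.71) in taPVAT, 0.705% (0.419 to 1.11) in mesPVAT-Parse, 0.333% (0.108 to 0.775) in RP-Parse and 0.222% (0.0816 to 0.483) in BAT. taPVAT stayed above BAT, and the intervals of mesPVAT-10x and cow WAT overlapped. Thinning left out nuclei that were too shallow, 3788 of 5887 in mesPVAT-10x, 1302 of 2805 in RP-Parse and 476 of 3028 in mesPVAT-Parse. It left out 0 in taPVAT, BAT and cow WAT. The thinned shares of the white rat libraries are therefore those of their deeper nuclei.

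**Figure D2:**
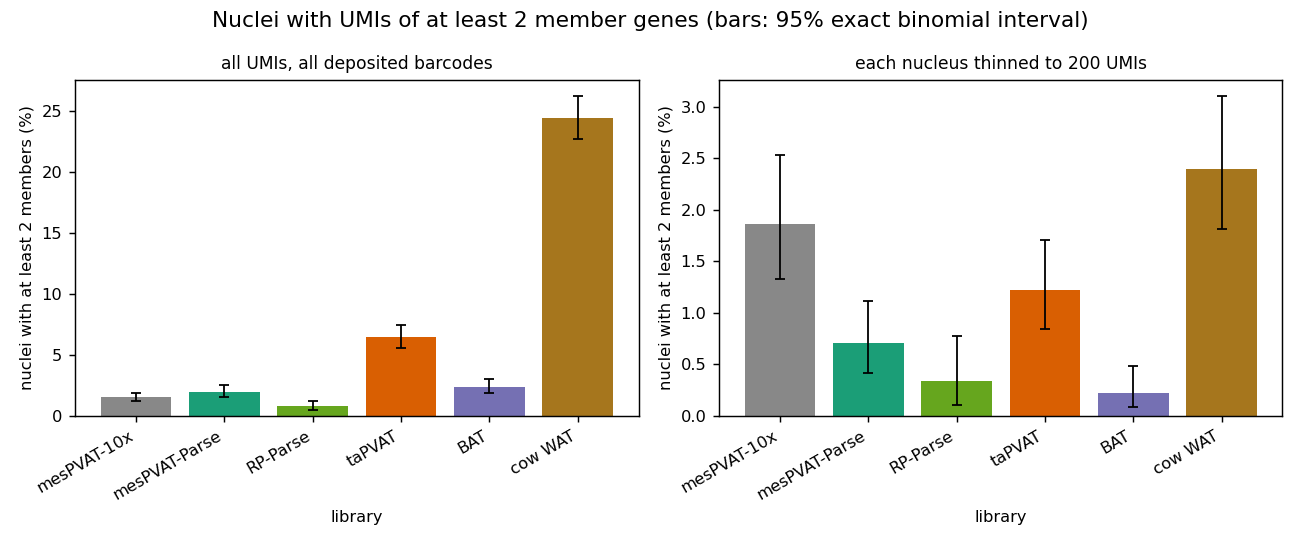
Percentage of nuclei with UMIs of at least 2 member genes in each library, from all UMIs (left) and with each nucleus thinned to 200 UMIs (right), with 95% exact binomial intervals as bars. Cow WAT reaches 24.4% on the left and 2.39% on the right, where mesPVAT-10x stands at 1.86%. Nuclei with fewer than 200 UMIs are left out on the right.

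A UMI in a nucleus need not mean expression, since free RNA also enters barcodes, so shares were set beside nuclei that should lack these genes. Each nucleus was classed by its own marker UMIs, without the members. Mrc1 was seen in 41.9% of macrophage-class nuclei and 1.78% of adipocyte-class nuclei of mesPVAT-10x (median UMIs 213 and 225), in 36.0% and 6.67% in taPVAT (780.5 and 1933), in 38.7% and 2.70% in BAT (1006 and 2193.5) and in 44.7% and 25.7% in cow WAT (4967 and 6906). In those 4 libraries the adipocyte-class share lay below the macrophage-class share by more than both intervals. In mesPVAT-Parse (10.8% and 2.19%) and RP-Parse (7.14% and 3.33%) the macrophage class had 37 and 28 nuclei, and the intervals overlapped. In cow WAT SIGLEC1 had overlapping intervals in the adipocyte class (8.94%, 5.20 to 14.1) and the macrophage class (7.37%, 4.27 to 11.7). In the clusters described below, which hold filtered nuclei alone, it was in 6.79% (3.85 to 10.9) of macrophage-like nuclei. Its share was 1.48% (0.180 to 5.25) in adipocyte-like nuclei, again with overlapping intervals. In all nuclei outside the macrophage-like clusters it was 1.23% (0.773 to 1.86), with an interval apart from that of the macrophage-like nuclei.

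The members were found together in the same nuclei more often than nucleus depth gives. The expected number of nuclei with both genes was computed within 10 classes of depth, and the observed number was divided by it. The largest ratio possible falls as more nuclei hold a gene, so the size of a ratio is not comparable between libraries of unlike depth. In taPVAT all 36 pairs of members had a ratio above 1, with a median of 7.24. Mrc1 and Cd163 shared 62 nuclei where depth gave 9.32, a ratio of 6.65 (5.10 to 8.53), and Cd163 and F13a1 shared 54 where depth gave 7.07, a ratio of 7.64 (5.74 to 9.97). Csf1r had the lowest ratios with most partners, such as 4.38 with Mrc1 and 4.75 with Cd163. Of the 33 taPVAT nuclei with Folr2, 30 (90.9%) held another member.

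In BAT, 32 of 36 pairs had a ratio above 1 and the other 4 pairs, all among Clec10a, Timd4, Folr2 and Siglec1, shared no nucleus. Mrc1 and Cd163 shared 29 nuclei where depth gave 2.18, a ratio of 13.3 (8.92 to 19.1), and Cd163 and Ms4a4a shared 15, a ratio of 19.0 (10.6 to 31.3). In cow WAT the ratios were lower, with a median of 1.74 over 28 pairs. There CD163 was in 25.0% of nuclei, against 1.93% in BAT, which limits the ratios in cow WAT more. Lower ratios there are not read as weaker co-detection. The highest there was that of MRC1 and LYVE1, with 91 nuclei against 40.2 given by depth, a ratio of 2.26 (1.82 to 2.78). LYVE1 and CLEC10A gave 0.90 on 4 nuclei, and CLEC10A and TIMD4 shared none.

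**Figure D3:**
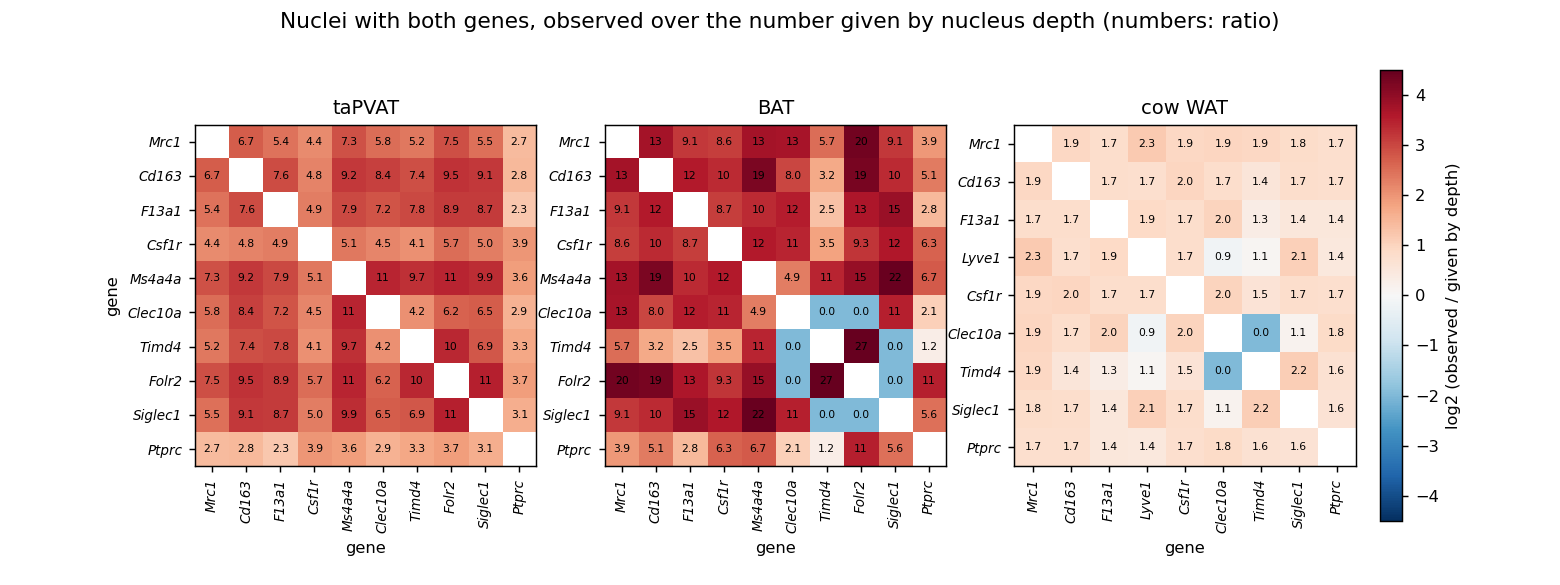
Number of nuclei with both genes, divided by the number given by nucleus depth, for each pair of members and for Ptprc in taPVAT, BAT and cow WAT, with the ratio printed and its log2 as colour (pairs that shared no nucleus are drawn in blue at 0.0). taPVAT is above 1 throughout, BAT has higher ratios with empty pairs among the rare members, and cow WAT has a median ratio of 1.74. Many BAT ratios rest on fewer than 10 shared nuclei. The size of a ratio is limited by the share of nuclei with each gene, which differs between the libraries.

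In mesPVAT-10x Mrc1 and Cd163 shared 39 nuclei where depth gave 3.58, a ratio of 10.9 (7.75 to 14.9). Mrc1 with any other member reached 8.18 there, 2.16 in mesPVAT-Parse and 1.33 (0.490 to 2.91) in RP-Parse, the last with an interval that holds 1. In RP-Parse, 24 of 36 pairs shared no nucleus, against 12 of 36 in mesPVAT-10x. A member was in 2 (Folr2) to 90 (F13a1) of 2805 RP-Parse nuclei, so an empty pair need not mean missing co-detection. Of the RP-Parse pairs, the interval lay above 1 for Csf1r with Timd4 alone, a ratio of 5.53 (1.14 to 16.2) on 3 nuclei. In mesPVAT-10x it did so for 20 of 36 pairs. Mrc1 was not gathered in nuclei with a UMI of any gene on a lymphatic endothelial marker list (Prox1, Flt4, Mmrn1, Reln, Ccl21 or Pkhd1l1), with ratios of 0.476 (0.260 to 0.798) in mesPVAT-10x and 0.936, 1.01, 1.33, 1.22 and 1.14 in the others, all 5 with intervals that hold 1. The list is not limited to lymphatic nuclei. With every barcode clustered, Pkhd1l1 was among the leading genes of a mesPVAT-Parse cluster with Gpm6a and Msln. Whether lymphatic nuclei carry Mrc1 was not tested.

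Ptprc was seen with the members above the number given by depth in 5 of the 6 libraries. The ratio for any member with Ptprc was 5.91 (3.71 to 8.95) in mesPVAT-10x, 3.98 (3.01 to 5.17) in BAT, 2.42 (2.05 to 2.83) in taPVAT, 1.61 (1.18 to 2.16) in mesPVAT-Parse, 1.35 (1.23 to 1.48) in cow WAT and 1.10 (0.551 to 1.98) in RP-Parse. As above, the size of these ratios is not comparable between libraries. The interval held 1 in RP-Parse, where 0 of 42 nuclei with Mrc1 had Ptprc and depth gave 1.56. Among nuclei with at least 2 members Ptprc was seen in 62.9% in cow WAT, 48.3% in taPVAT and 34.4% in BAT, against 11.9%, 8.58% and 3.97% of nuclei with none. In the white rat libraries it was 18.3% (11 nuclei) in mesPVAT-Parse, 13.6% (3 nuclei) in RP-Parse and 10.2% (9 nuclei) in mesPVAT-10x, against 4.99%, 2.47% and 0.580%. The RP-Parse share rested on 22 nuclei (2.91 to 34.9). Unlike the ratios, these shares are not adjusted for depth. Nuclei with at least 2 members had the higher median UMIs in every library, such as 446 against 205 in RP-Parse. By member, Csf1r had the highest ratio with Ptprc in taPVAT (3.92, 3.19 to 4.76, with 100 of 182 nuclei) and F13a1 the lowest (2.32, 1.70 to 3.08). In BAT Csf1r (6.29) also stood above F13a1 (2.77), with intervals of 4.43 to 8.67 and 1.38 to 4.96 that overlapped.

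To see where the members lay without using them, each library was clustered with the members and Ptprc hidden, and clusters were named from other markers. Values between clusters are descriptions, since cells were grouped by genes that vary with these. In taPVAT cluster 3, of 110 nuclei (4.17%), raised 10 of 17 macrophage markers, among them Adgre1, C1qa, C1qb, Mertk and Msr1, and is called macrophage-like. This cluster held 48.3% (45.6 to 51.0) of the member UMIs of clustered nuclei, 85.5% of its nuclei had a member and 75.5% had at least 2. With each nucleus classed by its own markers in place of clusters, the macrophage class held 24.8% of member UMIs. Mrc1 was at 1196 CPM in cluster 3, 40.8 CPM in the other clusters and 17.8 CPM in adipocyte-like clusters, with a UMI in 57.3% of cluster 3 nuclei (median 861 UMIs) and 3.28% of adipocyte-like nuclei (median 1572 UMIs).

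The other members followed Mrc1 in taPVAT, apart from Csf1r. Cluster 3 held 54.2% of Cd163 UMIs (639 CPM against 19.6 elsewhere), 60.7% of F13a1 (879 against 20.6), 58.3% of Ms4a4a (205 against 5.32), 51.2% of Clec10a (123 against 4.25), 54.3% of Folr2 (111 against 3.40), 47.4% of Siglec1 (106 against 4.25) and 35.9% of Timd4 (82.1 against 5.32). Of all 8518 genes with 20 UMIs in the higher side, 4.18% were at least 2-fold higher in cluster 3. Folr2 (19 UMIs), Siglec1 (18 UMIs) and Timd4 (14 UMIs) had too few for this rule. Csf1r was at 404 CPM against 41.9, and only 25.9% of its UMIs were in cluster 3.

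A second cluster carried Csf1r with few of the other members. Cluster 12 of taPVAT (78 nuclei, 2.96%, median 711.5 UMIs) held 38.3% of Csf1r UMIs, at 1267 CPM (1033 to 1538), with a UMI in 46 nuclei (59.0%, 47.3 to 70.0). In the same nuclei Mrc1 had 3 UMIs, F13a1 2 and Timd4 1, while Cd163, Ms4a4a, Clec10a, Folr2 and Siglec1 had none, which allows up to 37.3 CPM for each at 3 counts. Set against that limit, cluster 3 was 17.1-fold higher for Cd163, 5.51-fold for Ms4a4a, 3.30-fold for Clec10a, 2.99-fold for Folr2 and 2.83-fold for Siglec1. These ratios leave out the counting error of cluster 3. Of the nuclei with Csf1r, 46 of 50 (92.0%, 80.8 to 97.8) held another member in cluster 3 and 5 of 46 (10.9%, 3.62 to 23.6) in cluster 12. Ptprc was in 83.3% (73.2 to 90.8) of cluster 12 nuclei and 40.0% (30.8 to 49.8) of cluster 3 nuclei.

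Cluster 12 was left without a name. It raised 5 of 17 macrophage markers (among them Adgre1, Cybb, Spi1 and Lyz2) and was led by P2ry10, Lilrb4, Myo1g, Itgal and Itga4, the last 2 being leukocyte integrin subunits. Genes listed for monocytes summed to 2683 CPM (2337 to 3066) in cluster 12 and 193 CPM (133 to 272) in cluster 3, with 5 of its 10 genes at 0 in each. Most of this sum was Itga4, itself a leading gene of cluster 12, at 2087 CPM and 52.8 CPM. Plac8 of the same list, which was not among the leading genes, was at 373 CPM (251 to 532) and 5.86 CPM (1 UMI). Genes listed for other resident macrophages ran the opposite way, with 547 CPM (397 to 734) and 4590 CPM (4274 to 4923), of which Stab1, a leading gene of cluster 3, was 1677 CPM. The MHC class II list, which includes Ciita, summed to 12.4 CPM (1 UMI) in cluster 12 and 176 CPM (119 to 251) in cluster 3. It summed to 45.5 CPM (39.5 to 52.2) in the remaining clusters and 1965 CPM in cluster 10. Cluster 10 had 86 nuclei with raised T and NK cell markers, and Csf1r was in 5 of them. Ciita made 82.1 CPM of the cluster 3 sum. Beside all other clusters, RT1-Da, RT1-Db1 and RT1-Ba were higher in cluster 3, on 2, 9 and 3 UMIs. Cd74 (11.7 and 24.9 CPM) and RT1-Bb (0 UMIs in cluster 3) were lower.

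**Figure D4:**
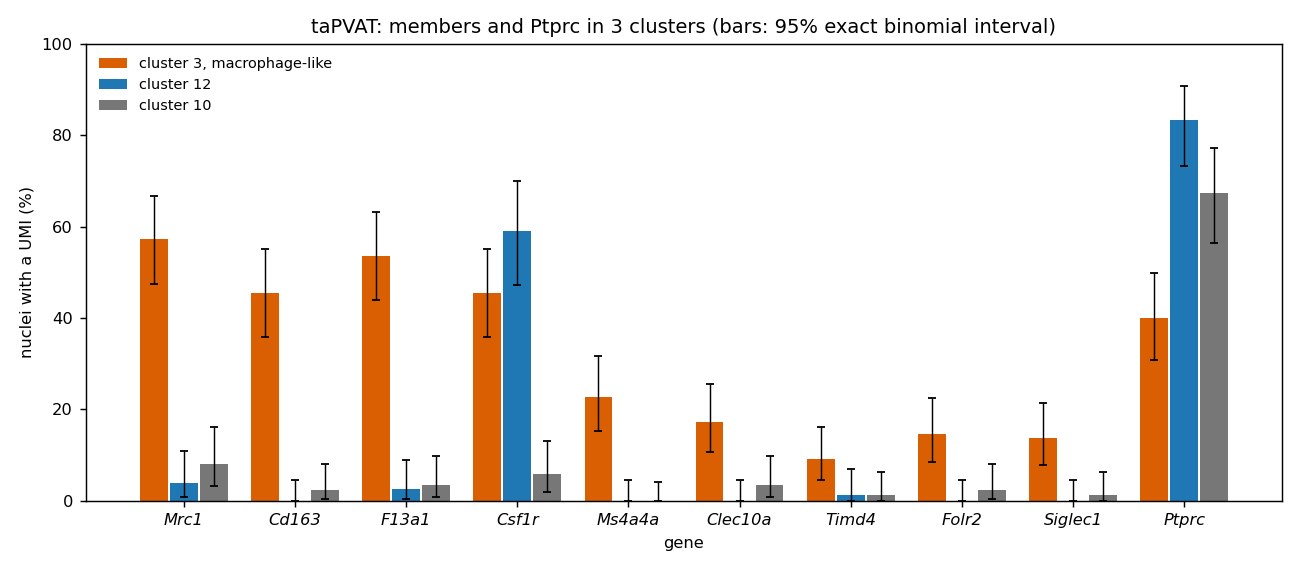
Percentage of nuclei with a UMI of each member and of Ptprc in clusters 3, 12 and 10 of taPVAT, clustered without these genes, with 95% exact binomial intervals as bars. Csf1r is in 45.5% of cluster 3 and 59.0% of cluster 12, whereas the other members are below 4% in cluster 12.

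BAT had 1 macrophage-like cluster, cluster 1 with 90 nuclei (3.43%, median 878.5 UMIs), which raised 8 of 17 macrophage markers and held 47.0% (42.9 to 51.2) of member UMIs, or 26.5% with each nucleus classed by its own markers. Mrc1 was at 735 CPM there against 12.6 CPM in the other clusters, Cd163 at 521 against 7.16, F13a1 at 399.8 against 9.26, Csf1r at 586 against 14.3 and Ms4a4a at 158 against 2.97 (4.60% of 7481 genes were 2-fold higher in this cluster). Ms4a4a, with 17 UMIs in this cluster, had too few for the rule. Timd4 had no UMI in it, a limit of 27.9 CPM at 3 counts, Folr2 had 1 UMI, and all 13 Timd4 UMIs of the clustered BAT nuclei were in other clusters. Compared with cluster 3 of taPVAT, fewer nuclei held Mrc1 (27 of 90 against 63 of 110) or at least 2 members (31.1% against 75.5%), at like median depth. Other leukocyte genes were higher in the BAT cluster. Summed levels were 6276 CPM against 2890 CPM for the pan-leukocyte list and 883 CPM against 193 CPM for monocyte genes. They were 576 CPM against 176 CPM for MHC class II genes and 399.8 CPM against 164 CPM for T and NK cell markers. Of the monocyte sum in the BAT cluster, Itga4 made 474 CPM and S100a9, also on the granulocyte marker list, 177 CPM. The part of these leukocyte genes in the difference was not tested. Of the Csf1r nuclei of this cluster, 22 of 36 (61.1%, 43.5 to 76.9) held another member, a share between those of clusters 3 and 12 of taPVAT.

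In cow WAT 2 clusters were macrophage-like, cluster 0 (7.52% of clustered nuclei, median 4318 UMIs) and cluster 12 (3.49%, median 2851 UMIs). Together they held 68.1% of the member UMIs of clustered nuclei, in 11.0% of these nuclei. Of all member UMIs of cow WAT, 52.0% lay in nuclei outside the filters. With every deposited barcode clustered, macrophage-like clusters held 49.5% of member UMIs. Over both, CD163 was at 1476 CPM against 62.6 CPM elsewhere, F13A1 at 879.8 against 84.6, CSF1R at 855 against 54.1, MRC1 at 416 against 36.1 and LYVE1 at 75.7 against 7.19 (10.0% of 13179 genes were 2-fold higher). SIGLEC1 was at 19.2 against 3.73, and CLEC10A (11.5 against 1.52) and TIMD4 (13.4 against 3.46) had too few UMIs for the rule. CD163 was in 82.4% of macrophage-like nuclei (median 4080 UMIs) and 20.7% of adipocyte-like nuclei (median 3776 UMIs).

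The members divided the 2 cow clusters. LYVE1 was at 7.80 CPM (2.86 to 17.0) in cluster 0 and 267 CPM (209 to 335) in cluster 12, F13A1 at 333 CPM (293 to 376) and 2418 CPM (2237 to 2609), MRC1 at 186 CPM (157 to 219) and 1063 CPM (944 to 1192) and SIGLEC1 at 7.80 CPM (2.86 to 17.0) and 51.1 CPM (28.0 to 85.8). CD163 (1329 and 1888 CPM) and CSF1R (737 and 1187 CPM) differed less, and PTPRC was higher in cluster 0 (583 and 267 CPM). At least 2 members were seen in 98.6% of cluster 12 nuclei and 74.8% of cluster 0 nuclei, although cluster 12 was the shallower. TIMD4 (14.3 and 11.0 CPM) and CLEC10A (14.3 and 3.65 CPM) had overlapping intervals.

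**Figure D5:**
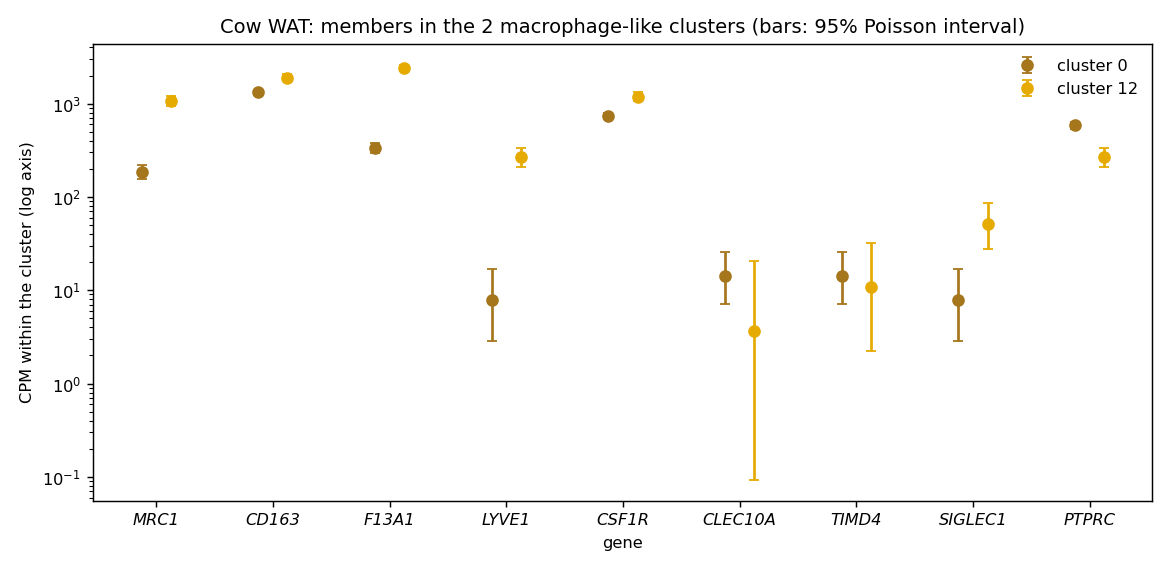
CPM on a log axis of each member and of PTPRC within the 2 macrophage-like clusters of cow WAT, with 95% exact Poisson intervals as bars. LYVE1, F13A1, MRC1 and SIGLEC1 lie higher in cluster 12, CD163 and CSF1R differ less, and PTPRC lies higher in cluster 0.

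Genes outside the members also parted these clusters. The lipid-associated macrophage list, which includes the lysosomal lipid gene GPNMB and the secreted SPP1, summed to 1717 CPM in cluster 0 and 215 CPM in cluster 12, with GPNMB at 387 and 65.7 CPM, LGALS3 at 533 and 21.9 CPM and SPP1 at 191 and 11.0 CPM. The scavenger receptors STAB1 (185 and 902 CPM) and COLEC12 (101 and 668 CPM) and the endocytic adaptor DAB2 (123 and 902 CPM) followed LYVE1. VSIG4, a complement receptor (1154 and 468 CPM), and MERTK, a receptor for dying cells (1242 and 369 CPM), were higher in cluster 0, though both are on the resident list or the macrophage markers. The 2 clusters were found by the same counts, so their differences are a description.

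No cluster of the white rat libraries met the rule for a macrophage-like name. The rule asks for at least 10 UMIs of a marker and a UMI in at least 5% of nuclei. Shallow nuclei reach these limits less easily, so a missing name does not show that the markers were absent. In mesPVAT-10x cluster 3 (359 nuclei) held 41.1% (37.1 to 45.2) of member UMIs and was led by Hdac9, Lgmn, Rbpj, Mctp1 and Ptprj with C1qa among the top 10, but it raised 1 macrophage marker at a median of 145 UMIs. Mrc1 was at 1683 CPM in it and Csf1r at 91.0 CPM. In mesPVAT-Parse the leading cluster (cluster 16, 130 nuclei) held 13.5% of member UMIs and raised Mertk and Tbxas1. In RP-Parse no cluster held more than 12.4%.

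By lists, the pan-leukocyte genes were at least 2-fold higher in macrophage-like clusters for 7 of 7 genes with enough UMIs in taPVAT, 7 of 7 in BAT and 9 of 9 in cow WAT. Other resident macrophage genes were higher for 7 of 9, 4 of 5 and 9 of 12 (backgrounds 4.18%, 4.60% and 10.0%). In taPVAT these were Stab1 (26.8-fold), Tgfbi (16.2-fold), Selenop (10.8-fold), Colec12, Dab2, Mertk and Fcgrt, and not Gas6 or Igf1. Transcription factors were higher for 2 of 5 in taPVAT (Runx1 and Maf), 2 of 6 in BAT (Runx1 and Mef2c) and 6 of 9 in cow WAT (among them SPI1, MAF, IRF8, TFEC and RUNX1). Mertk, counted in taPVAT and cow WAT, and SPI1, counted in cow WAT, are also macrophage markers that named the clusters. Their higher level there is no separate result. Apart from Ptprc, the list genes were not left out of clustering and could help to form these clusters. Their counts beside the background therefore describe the clusters and are not independent of the grouping. Monocyte genes were higher for 0 of 5, 1 of 3 (Itga4) and 1 of 3 (ITGA4), lipid-associated genes for 0 of 1, 0 of 1 and 4 of 5 (GPNMB, SPP1, CD9 and LGALS3), MHC class II genes for 0 of 2, 1 of 1 (Cd74) and 1 of 2 (CIITA) and survival genes for 0 of 2, 0 of 1 and 2 of 4 (CSF2RA and CSF2RB). The platelet genes had no member with enough UMIs in the rat libraries, and ITGA2B in cow WAT was 1.28-fold higher. In cluster 3 of taPVAT the platelet list summed to 2 UMIs.

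Stab1 and Rbpj recurred among the genes most like the members over nuclei. Likeness was the Pearson correlation of a gene's log value with the summed log values of the members over all nuclei of a library, among genes seen in at least 1% of nuclei. The nearest gene was Stab1, the endocytic receptor stabilin, in taPVAT (r = 0.61, 2708 nuclei), followed by Rbpj (0.56), Apobec1 (0.45), Slc9a9 (0.44) and Aoah (0.42). In BAT Cd4, Stab1, Gria2, Rbpj and Dab2 gave 0.47 to 0.54 over 2699 nuclei, and in cow WAT PEPD (0.71), GDA, WWP1, RBPJ and STAB1 (0.59) led over 2297 nuclei. Rbpj, the partner of Notch receptors in the nucleus, led in mesPVAT-10x (0.32, 5887 nuclei), with Hdac9, Kcnt2 and Slc9a9 among the next genes. In mesPVAT-Parse Stab1 led at 0.16, with Slfn9, Fgd6 and Adam23 among the next genes, and in RP-Parse no gene passed 0.11, which is too weak to read. Stab1 was among the nearest 50 genes in 5 of the 6 libraries and Rbpj in 4. The nuclei of a library share its depth and its mix of cell types, which these values also carry.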

How the data were processed

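Nuclei from snap-frozen adipose tissue were profiled in 6 libraries, 1 per condition, so conditions had no replicates and no test was run between them. The deposited values were UMI counts per gene and nucleus, which the authors made with split-pipe against GRCr8 (rat) or ARS-UCD1.3 (cow) for the Parse libraries and which carried no normalization. For the 10x Genomics library the study's methods name Rnor_6.0. The submitters' processing notes name FastQC and Scanpy, without versions. The 10 members, the gene lists and the comparisons were chosen with earlier results of these data known, and named genes were the members, Ptprc, list genes with at least 20 UMIs and the 5 most correlated genes per library, plus cluster-leading and list genes named after their values were seen.

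UMIs were summed over every deposited barcode and scaled to CPM with Python 3.11.15, numpy 2.4.6, pandas 2.3.3 and scipy 1.17.1. Intervals are 95% exact Poisson or Clopper-Pearson intervals, and a count of 0 was given a limit of 3 counts. Expected co-detection was computed in 10 depth classes, with the Poisson interval of the observed number. For clusters, nuclei with 100 to 15000 UMIs, at most 4500 genes and at most 3% mitochondrial UMIs were kept. Nuclei more than 5 median absolute deviations from the library median of log genes or log UMIs were also left out. This kept 5082, 3010, 2602, 2637, 2627 and 2008 nuclei in mesPVAT-10x, mesPVAT-Parse, RP-Parse, taPVAT, BAT and cow WAT. They were scaled to 1000 UMIs and clustered in scanpy 1.11.5 on 2000 variable genes, 30 components and 15 neighbours (Leiden resolution 1, seed 20). The members and Ptprc were left out of clustering and naming. Names rested on 108 markers of 14 classes, of which at least 3 had to be raised. Raised meant 2-fold above the median of the other clusters, with at least 10 UMIs and a UMI in at least 5% of nuclei. A cluster stayed unnamed where 3 times the number raised did not exceed the matched markers of the class. It also stayed unnamed where another class raised as many or had more of the top 10 genes. The same held where depth was low with no marker among those genes. No doublet caller was used, and the nuclei with the most UMIs were left out as an alternative. A nucleus classed on its own had at least 2 marker UMIs of its class. Promoters came from RefSeq tables of GRCr8. Some genes that the naming rule selects are not reported here. The counting and fold functions were tested on simulated data.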

Additional observations from a re-analysis of the deposited data

How the results depend on the processing

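Each library stood for 1 condition, so the values below have no error between animals and the intervals in the text cover counting alone. No paired analysis was possible because each condition had 1 library and the replicate numbers pair nothing. Counting 7 shared members and clustering every deposited barcode were chosen after seeing the data. The cause of a move was not tested unless the setting itself removed genes or nuclei.

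Of 40 alternative values of the summed CPM 20 moved, which means that they lay outside the counting interval of the main value. The same meaning holds for the shares and the co-detection ratios below. With nuclei of at least 500 UMIs alone the summed CPM was 413 CPM in mesPVAT-10x, 248 CPM in mesPVAT-Parse and 296 CPM in RP-Parse. Without the 5% of nuclei with the most UMIs it was 318 CPM in mesPVAT-Parse, 288 CPM in taPVAT and 731 CPM in cow WAT. Leaving the most abundant gene and mitochondrial genes out of the total gave 799.6 CPM in cow WAT, 306 CPM in taPVAT and 113 CPM in BAT, and the study's filters gave 694 CPM in cow WAT. The 2 sublibraries gave 318 and 257 CPM in mesPVAT-Parse, 109.8 and 88.4 CPM in BAT and 768 and 659.5 CPM in cow WAT. With 7 members it was 475 CPM in mesPVAT-10x, 259 CPM in mesPVAT-Parse, 249.6 CPM in taPVAT and 695 CPM in cow WAT. Leaving out members can only lower the sum, and leaving other genes out of the total can only raise the CPM. The direction of the moves under these settings was fixed in advance. The interval of the moved value itself was not part of the rule. That interval held the main value for both sublibraries of mesPVAT-Parse and of BAT. It also did so for RP-Parse at 500 UMIs, mesPVAT-Parse without the 5% of deepest nuclei and cow WAT under the study's filters.

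Of 30 alternative shares of nuclei with at least 2 members 17 moved. Thinning to 200 UMIs made 6 of these moves, thinning to 500 UMIs 5 and leaving out Lyve1 and Mrc1 4. Leaving out members can only lower the share, as can thinning where no nucleus is left out. The direction of such moves was fixed in advance. Thinning to 200 UMIs gave 1.86% in mesPVAT-10x, 0.705% in mesPVAT-Parse, 0.333% in RP-Parse, 2.39% in cow WAT, 1.22% in taPVAT and 0.222% in BAT. Thinning to 500 UMIs gave 3.05% in mesPVAT-10x, 1.02% in mesPVAT-Parse, 5.66% in cow WAT, 3.27% in taPVAT and 1.01% in BAT. It left out 5625 of 5887 nuclei of mesPVAT-10x, where the value rests on 8 of 262 nuclei (1.33 to 5.93). Without Lyve1 and Mrc1 the share was 0.747% in mesPVAT-10x, 1.25% in mesPVAT-Parse, 4.58% in taPVAT and 21.5% in cow WAT. In cow WAT it was 18.2% under the study's filters and 21.3% without the 5% of nuclei with the most UMIs.

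Co-detection with Ptprc moved in 2 of 24 values, both in cow WAT, to 1.64 with a single expectation over all nuclei and 1.55 under the study's filters. The share of the member UMIs of clustered nuclei in macrophage-like clusters moved in 6 of 15 values. It was 59.2% at a Leiden resolution of 0.5 in taPVAT and 66.3% at 2 in cow WAT. With each nucleus classed on its own it was 52.2% in cow WAT, 26.5% in BAT and 24.8% in taPVAT, and with every barcode clustered 49.5% in cow WAT.

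Counts of members past the fold moved in 7 of 20 values. Stricter limits can only lower such counts, so the direction of these moves was fixed in advance. With at least 50 UMIs required, 4 of 5 members were higher in taPVAT than in BAT, 0 of 2 were higher in RP-Parse than in mesPVAT-Parse and 1 of 1 was higher in RP-Parse than in BAT. With a fold of 3, these counts were 4 of 9, 0 of 6 and 2 of 5, and 0 were higher in mesPVAT-Parse than in mesPVAT-10x. The share of all genes past these stricter limits is not given, so none of these counts is read as a result about the members.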

Other observations

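In cow WAT, 276 nuclei lay above 15000 UMIs or 4500 genes, which the study's filters leave out. They held 50.7% of all UMIs and 52.0% of member UMIs. At least 2 members were seen in 71.0% (65.3 to 76.3) of them and in 18.1% (16.4 to 19.8) of the 2021 nuclei below these limits, at 729 and 692 member CPM and median depths of 22784 and 3021 UMIs. Of those with at least 2 members, 77.6% also had a UMI of PTPRC. Whether they hold more than 1 nucleus was not tested.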
